A study of Rattus norvegicus with 35 samples.

Results

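Bile duct ligation was compared with no ligation in rats that had only a sham hemorrhage procedure. The comparison held 10 of the 35 liver arrays of the series, 5 from ligated rats and 5 from control rats, and its members were found by the group name in the sample labels. The other arrays came from rats with hemorrhage and resuscitation or with simvastatin, and they served to estimate the spread. Ligated sham rats had the common bile duct tied at 2 places and the piece between cut out, received vitamin K each week, and were sampled 4 weeks later, when the labels call the liver cirrhotic. Control sham rats are called control and no more, and whether ligated sham rats received the vehicle of the drug arms is not stated. The labels do not say whether they had a laparotomy, vitamin K or the same anaesthesia, and strain, sex and age are not given, so the difference described here is that between these groups as a whole. Biotin-labelled total RNA of liver tissue was hybridised to 1-colour Affymetrix arrays, and the deposited values are log2 signals for probe sets. Each gene was represented by the probe set of highest mean among those listed for that gene alone, which gave 13439 genes. Nothing in the labels says how many animals share a litter or a day, so the p-values reflect only how these arrays vary.

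Ligation of the common bile duct stops the flow of bile into the gut. In the rat the biliary epithelium then multiplies into the portal tracts, matrix-producing cells of the portal tract and the sinusoid lay down scar, macrophages accumulate and the mass of hepatocytes shrinks in proportion. A whole-liver array mixes all of these cells, so fewer cells of a type and less RNA per cell cannot be told apart in any value given here. Standard liver lists (cytochromes, bile acid genes, collagens, keratins, acute phase proteins) leave out most gene families, and the 75 families and functions examined here were written to cover the others. Together they hold 1957 genes of the 13439. In each family a fixed rule named up to 2 members with the largest rise and up to 2 with the largest fall, and the other members named were chosen for their known role after their values were seen.

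Ligation changed 6402 of the 13439 genes (47.6%) at an adjusted p under 0.05 in limma's moderated test with Benjamini-Hochberg adjustment over all genes. Expression rose in 3394 (25.3%) and fell in 3008 (22.4%), and the estimate was at least 2-fold in 1524 of the rises and 660 of the falls. The values of the 5 ligated arrays lay wholly above or wholly below those of the 5 control arrays in 4302 genes (32.0%). With so many genes called, a family's count carries information only against these shares. The median log2 change of all genes was -0.04. Centring each array on its own median moved it by -0.38, to -0.42, and turned the split into 1949 rises and 7355 falls, and a second quantile normalization gave 3022 and 3284. Each list median below should therefore be read against -0.04, and where its sign depends on the scaling the centred value follows it. Centred values should be read against those of all genes, -0.42 with 1949 rises and 7355 falls of 13439. Centring moved the list medians and the median of all genes by the same amount. A sign that changed on centring is thus no change relative to all genes.

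The arrays of the groups differed in ways that touch low signals. The brightest of 23 nonspecific control probes averaged 4.51 in control and 3.64 in ligated sham arrays, all 23 were lower in the ligated arrays, and the array median was 3.99 against 4.18. These array medians differ by less than the -0.38 of the centring above, which therefore rested on other medians. The spiked control BioD exceeded BioB by 3.20 in control and 3.69 in ligated arrays. A gene whose group mean lay at or below the mean of that brightest probe was taken as not above background in that group. Its fold is given as at least a value where only the brighter group was above it, and no fold is given where the brighter group was not. There were 3619 genes below background in both groups, of which 748 fell and 100 rose. In 244 more, 45 of which fell, only the dimmer group, with the ligated arrays' lower background, was above it. In the lowest 25% of genes by mean 19.9% fell and 3.54% rose. The part that the background difference has in those falls was not tested. Family counts below include genes below background in both groups unless stated otherwise. Of the 9820 genes with a group above background 3294 rose and 2260 fell, and counts limited to such genes should be read against these. Because the background was lower in ligated arrays, a dim gene that rose passed this filter more easily than one that fell. All control arrays carry the same ending in their title number and the ligated arrays carry others. The labels do not say what it means, and if it marks a batch, batch and ligation cannot be told apart within these sham arrays. The control ending also occurs among the simvastatin arrays, which came from ligated rats. In every simvastatin array, whatever its ending, the brightest nonspecific probe was at most 3.65, against 4.05 to 4.91 in control sham arrays. BioD exceeded BioB there by at least 3.43, against at most 3.255 in control sham arrays. What the ending has to do with these differences was not tested.

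The size of the effect was read on genes chosen in other animals, the 1385 genes that rose and the 589 that fell at least 2-fold between control and ligated rats after hemorrhage and resuscitation (H/R). Their median shift from the control sham mean was 1.98, 1.92, 1.22, 1.96 and 1.74 for the rising genes in ligated sham replicates 1 to 5, and -1.39, -1.62, -0.77, -1.72 and -1.29 for the falling ones. The control sham arrays lay between -0.10 and 0.08. Replicate 3 of the ligated sham group stood apart with the smallest shift in both directions. Without it 6719 genes passed, against 6402.

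**Figure D1:**
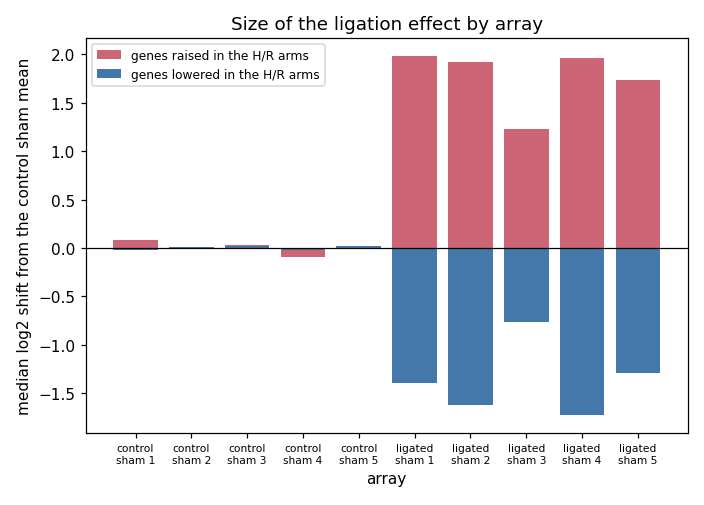
Median log2 shift of each sham array from the control sham mean, over 1385 genes raised (red bars) and 589 genes lowered (blue bars) in the ligated rats with hemorrhage and resuscitation, which share no array with the sham groups. The ligated arrays shift by 1.22 to 1.98 and by -0.77 to -1.72, with replicate 3 nearest to the controls, while the 5 control arrays stay near 0.

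Markers of the liver's cell types were read first. All 8 hepatocyte markers measured were above background in both groups, and 4 of them fell, Apoa2 with a log2 change of -1.30 and Hnf4a with -0.78, while Alb, the albumin gene, stood at -0.05 and did not pass. The Alb values, 13.65 to 13.76 in single sham arrays, lay close to the highest value of all arrays, 13.79, where a change may not show. Of 7 cholangiocyte markers 6 rose, and the mean over the list was 4.46 to 5.29 in single control arrays against 7.90 to 8.96 in ligated ones. Sox9, the remaining one, was not above background in either group. For stellate cells and myofibroblasts 5 of 7 rose, with list means of 4.98 to 5.38 against 5.90 to 6.92. Macrophage markers rose in 3 of 6 and fell in 1. Of 11 mast cell markers 1 passed, a gene below background in both groups, and the list mean was 3.23 to 3.35 in control and 3.31 to 3.93 in ligated arrays. The 2 red cell markers gave 0 calls. The 8 markers of exocrine pancreas gave 0 calls too, but ligated sham replicate 2 stood apart in them. Its list mean was 6.90, against 3.21 to 3.51 in the other ligated and 3.34 to 3.74 in the control arrays, and it read 8.28 for the chymotrypsinogen gene Ctrb1. Without that array 5927 genes passed, and of the genes given below only C3ar1 lost its call and Pgam1 gained one. The hepatocyte list mean was 12.58 to 12.73 in control and 12.12 to 12.38 in ligated arrays. These marker shifts move with the families described below, and their part in a family's change was not tested.

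**Figure D2:**
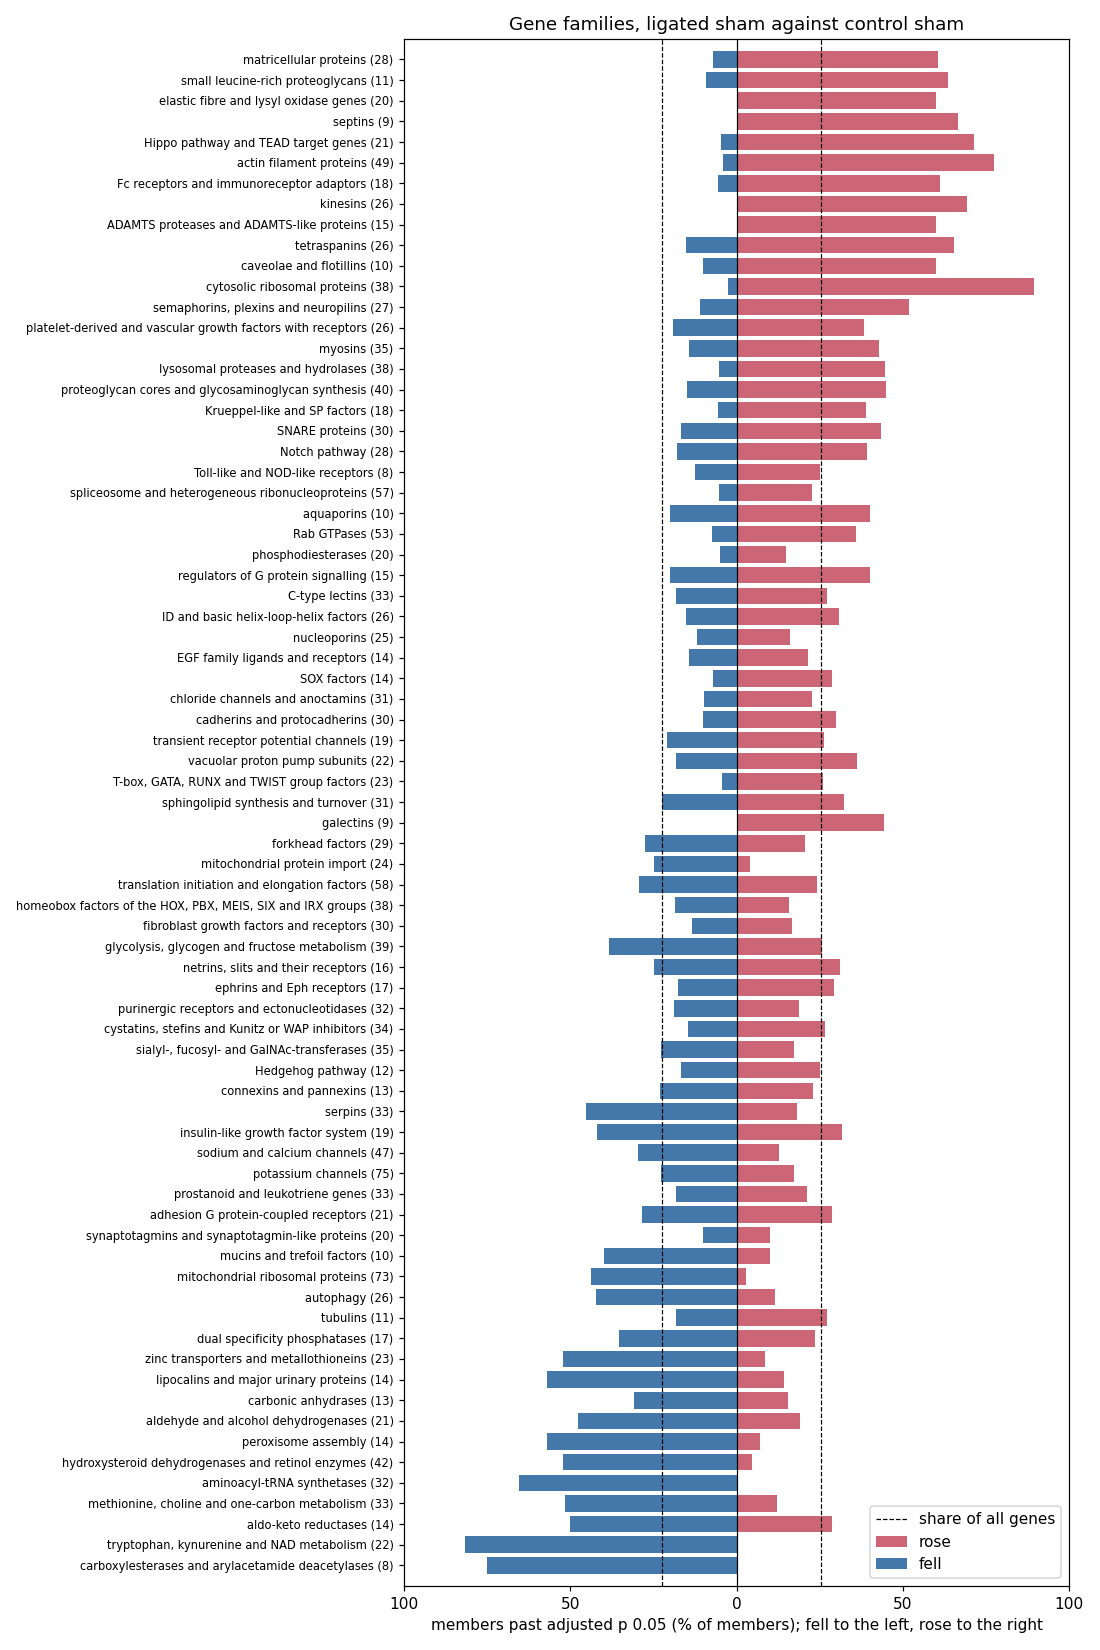
Percent of the members of each of 74 gene families that rose (red, to the right) or fell (blue, to the left) in ligated sham against control sham rats, ordered by the median log2 change, with the number of members in parentheses and dashed lines at the shares of all genes, 25.3% and 22.4%. Matrix, cytoskeleton and membrane families hold much of the top, with Hippo genes and Fc receptors among them. Liver metabolism and tRNA synthetases hold much of the bottom, and tubulins lie in the lower part near the mitochondrial ribosomal proteins.

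Among membrane organisers and traffic proteins the tetraspanins (65.4% rose) and caveolae genes (60%) stood furthest above the share of all genes, 25.3%. SNARE proteins (43.3%) and Rab GTPases (35.85%) were above it too. Tetraspanins, small membrane proteins that gather integrins and other partners into patches, rose in 17 of 26 members and fell in 4 (median log2 change 0.78). Tspan8, a tetraspanin of gut and biliary epithelium that also stood in the cholangiocyte marker list, gave log2 signals of 6.79, 5.99, 5.52, 5.35 and 4.25 in the 5 control arrays and 11.16, 11.25, 9.88, 10.79 and 11.21 in the 5 ligated arrays. The groups were far apart and the estimate was 38.8-fold (log2 change 5.28 ± 0.35, SE, adjusted p = 5.64e-14). Cd9 rose 25.3-fold (log2 change 4.66 ± 0.29), Tspan3 7.32-fold and Cd63, a tetraspanin of late endosomes, 3.44-fold. In the other direction Tspan12 fell by 0.77 and Tspan4 by 0.54 on the log2 scale.

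Rab GTPases, the switches that mark the compartments of the membrane system, rose in 19 of 53 and fell in 4. Their median of 0.08 turned to -0.30 with centred arrays (10 rises and 25 falls), against -0.42 for all genes. It also changed sign with all probe sets. Rab25, the Rab of recycling endosomes in epithelia, rose at least 3.27-fold and Rab31 5.88-fold. Rab40b fell (log2 change -1.55) and so did Rab38 (-1.03). The SNARE proteins, which fuse vesicles with their targets, rose in 13 of 30 and fell in 5 (median 0.16, centred -0.22 with 9 rises and 13 falls). Stx11 rose at least 3.77-fold and Sec22c at least 2.73-fold. Of 20 synaptotagmins and synaptotagmin-like proteins 17 were below background in both groups, and Sytl2, a Rab27 effector, rose 6.38-fold.

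Caveolae are the flask-shaped pits of endothelium, fat and smooth muscle. Of 10 genes for their coat and for flotillins 6 rose and 1 fell (median 0.75). Cav1, the main coat protein, stood at 4.78, 4.34, 4.69, 3.96 and 5.07 in control and 8.30, 7.78, 6.21, 7.61 and 7.11 in ligated arrays, with no overlap and the lowest ligated value in replicate 3 (log2 change 2.83 ± 0.37, adjusted p = 1.05e-07). Cav2 rose 2.17-fold and Cavin3 fell by 0.79 on the log2 scale.

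Among genes of the cytoskeleton, actin filament proteins, kinesins and septins rose in more than the share of all genes, and so did myosins (42.9%). Of 49 actin filament proteins 38 rose (77.5%, against 25.3% of all genes) and 2 fell, both of these from genes below background in both groups, and the median log2 change was 0.86. Tagln, a smooth muscle actin binder, rose 12.2-fold and Pdlim3 at least 5.79-fold. Members of epithelial and general type rose as well, among them Ezr, the linker of microvilli (9.26-fold), Gsn, which severs filaments (6.74-fold), and Vil1, the villin of brush borders (4.68-fold). Acta2, the smooth muscle actin used to mark myofibroblasts, rose by less, 1.75-fold, and missed the threshold with centred arrays (adjusted p = 0.0502).

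Kinesins, the motors that walk along microtubules, rose in 18 of 26 and fell in 0 (median 0.81). Kif12 was at 3.25, 4.02, 3.03, 3.85 and 3.73 in control and 6.24, 6.33, 5.47, 6.17 and 6.13 in ligated arrays. The control values lay below background, and the rise was at least 2.96-fold. Kif1a, a motor of dense vesicles in neurons, rose at least 3.49-fold, and the cilium motor subunit Kif3a rose at least 2.02-fold. Kif5b, the general cargo motor, had a log2 change of -0.08 that did not pass. Kifc3, a minus-end motor that the list did not hold but that stood among the 25 largest rises of genes above background in both groups, rose 13.1-fold.

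Septins, filament proteins of membranes and of the division ring, rose in 6 of 9 and none fell, with Septin4, long used as a stellate cell gene, rising 4.59-fold and Septin8 at least 3.25-fold. Myosins rose in 15 of 35 and fell in 5 (median 0.36, centred -0.02 with 13 rises and 12 falls). Of the 5 falls 1 was in a gene above background in a group. The non-muscle heavy chain Myh10 read 5.40, 4.05, 5.22, 5.31 and 5.00 in control arrays and 8.15, 8.57, 7.65, 8.55 and 7.87 in ligated ones, which is 8.96-fold higher with no overlap (adjusted p = 2.46e-12), and Myo5c, a vesicle motor of secretory epithelia, rose at least 3.67-fold. Tubulins split near the shares of all genes, 3 of 11 up and 2 down (median -0.28, 3 up and 7 down when centred). Tubb4b rose 8.33-fold while Tuba4a fell by 0.66 on the log2 scale.

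Cell contact genes changed by member and not by family. Connexins form gap junctions, and those of hepatocytes and of other liver cells went opposite ways. Gja1, the connexin 43 of stellate cells, endothelium and bile duct cells, had signals of 8.55, 8.35, 8.94, 8.70 and 8.62 in control and 11.44, 11.58, 10.80, 11.61 and 11.40 in ligated arrays. All ligated values were higher, by 6.66-fold on average (log2 change 2.73 ± 0.18, adjusted p = 4.36e-14). Gjb1, the connexin 32 of hepatocytes, had 8.77, 8.53, 8.82, 8.95 and 8.73 in control and 7.42, 7.18, 8.13, 6.93 and 7.30 in ligated arrays and was 2.58-fold lower (log2 change -1.37 ± 0.22, adjusted p = 5.89e-06). Gjb2, connexin 26, also fell (-1.31 ± 0.33), but its groups overlapped through ligated replicate 3. Gja5 and Gjc1, connexins of vessel walls, rose at least 2.07-fold and at least 1.49-fold. Among 30 cadherins and protocadherins 17 were below background in both groups, 9 rose and 3 fell, with 1 of the falls above background in a group. The mesenchymal Cdh11 rose at least 3.02-fold and Pcdh18 fell by 2.00 on the log2 scale.

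Guidance families, known from growing axons and also active in vessels, had clear single members. Semaphorins, plexins and neuropilins rose in 14 of 27 and fell in 3 (median 0.43), Sema5a by at least 8.55-fold and Plxdc2 by at least 3.04-fold, against Plxna2, which fell by 2.04 on the log2 scale. Ephrins and Eph receptors rose in 5 of 17 and fell in 3, the falls all below background in both groups. Ephb3, an Eph receptor of intestinal crypts, rose at least 2.46-fold. Of 16 netrins, slits and their receptors 5 rose and 4 fell, the falls all in genes below background in both groups, and the pair of a ligand and a receptor Slit3 and Robo2 rose at least 2.78-fold and at least 4.30-fold.

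Matrix genes other than collagens held the 3 highest list medians, those of the matricellular, small proteoglycan and elastic fibre lists. Matricellular proteins, which sit in the matrix and signal to cells instead of building it, rose in 17 of 28 and fell in 2 (median 1.80). Thbs4, a thrombospondin, was below background in all 5 control arrays (3.77, 3.14, 2.80, 3.33 and 2.67) and at 8.26, 8.08, 6.23, 6.86 and 7.80 in the ligated arrays, at least 7.67-fold higher (adjusted p = 4.08e-13). Ccn2, the connective tissue growth factor, rose 10.5-fold, Fstl3 at least 4.57-fold and the basement membrane organiser Agrn 7.12-fold. Tgfbi fell by 1.03 on the log2 scale, and Tnc, Comp and Tnn, members known from scars and tendon, were below background in both groups. Spp1, osteopontin, rose 28.7-fold. It is also one of the cholangiocyte markers.

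The elastic fibre and lysyl oxidase genes rose in 12 of 20 and none fell (median 1.06). Loxl1, an oxidase that cross-links elastin, went from 4.88, 3.20, 4.09, 4.06 and 4.09 to 9.30, 9.56, 7.96, 9.68 and 8.81. Control replicate 1 was the highest of its group and ligated replicate 3 the lowest of its own, with a wide gap between them, and the rise was at least 21.0-fold (log2 change 5.00 ± 0.44, adjusted p = 3.37e-11). Microfibril genes rose with it, Fbn1 5.93-fold and Mfap4 at least 7.42-fold, and so did the latent TGF-beta binding proteins Ltbp1 (9.37-fold) and Ltbp2 (10.1-fold). Eln, elastin itself, had a log2 change of 0.02 and did not pass. Small leucine-rich proteoglycans rose in 7 of 11, with Dcn (decorin) 6.13-fold, Lum (lumican) at least 4.10-fold and Bgn (biglycan) 3.85-fold. ADAMTS proteases rose in 9 of 15 and none fell. Adamts15, which cleaves proteoglycans, was at 3.04, 3.04, 2.83, 2.46 and 2.84 in control and 6.91, 6.65, 5.90, 6.80 and 6.55 in ligated arrays, at least 4.17-fold higher with no overlap. Among proteoglycan cores and enzymes of glycosaminoglycan synthesis 18 of 40 rose and 6 fell (median 0.19, centred -0.19 with 6 rises and 15 falls). The hyaluronan receptor Cd44 rose 8.15-fold, while Ugdh, which makes the sugar acid for these chains, fell by 1.59 on the log2 scale and the hepatocyte syndecan Sdc2 by 1.11.

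Growth factor families held members that moved far in opposite directions. Fgfr3, a fibroblast growth factor receptor, read 6.47, 6.53, 5.79, 5.62 and 6.03 in control arrays and 10.19, 10.43, 9.05, 10.74 and 10.05 in ligated arrays. No control value came near a ligated one, and the rise was large (log2 change 4.00 ± 0.26, adjusted p = 5.78e-14). Fgfr1 rose at least 2.36-fold. Fgfr2 rose 1.71-fold on its brightest probe set, but the mean of all its probe sets gave a log2 change of -0.04. Fgfr4, the hepatocyte receptor of the gut hormone FGF15 in rodents, had a log2 change of -0.36 and did not pass, but fell past the threshold after quantile normalization (-0.56), when centred, and without control replicate 1 or 5 (adjusted p = 0.035 and 0.017). Of the ligands Fgf21, a hormone of the fasted liver, fell from 8.20, 8.45, 8.03, 8.69 and 8.85 to 4.93, 4.65, 7.68, 5.66 and 5.09 (log2 change -2.84 ± 0.49, adjusted p = 1.52e-05), ligated replicate 3 lying close under the controls. Of the 30 genes of the list 21 were below background in both groups.

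In the insulin-like growth factor system 6 of 19 genes rose and 8 fell. Igfals, the liver protein that holds the factor in a large serum complex, fell 4.40-fold, the growth hormone receptor Ghr 2.97-fold and the insulin receptor substrate Irs1 3.04-fold. The receptor Igf1r rose at least 2.63-fold, and of the binding proteins Igfbp7 rose 4.81-fold, Igfbp5 at least 2.38-fold and Igfbp3 3.00-fold, while Igfbp4 fell by 0.84 on the log2 scale. Egfr, the epidermal growth factor receptor of hepatocytes, fell 3.11-fold and its relative Erbb2 rose at least 1.56-fold. Among platelet-derived and vascular growth factors 10 of 26 rose and 5 fell, with Pdgfa at least 4.18-fold and Vegfd at least 2.21-fold higher and Hgf, the hepatocyte growth factor, 2.62-fold lower.

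The Hippo pathway restrains the coactivators YAP and TAZ, which bind TEAD factors and drive growth genes. Of 21 genes of the pathway and its targets 15 rose and 1 fell (median 0.87). Ankrd1, a target, was at 4.05, 2.69, 4.03, 3.77 and 2.88 in control and 8.00, 8.64, 6.87, 9.51 and 8.58 in ligated arrays, at least 14.1-fold higher (adjusted p = 1.36e-05). The rises included restraining members, Lats2 (1.99-fold), Wwc1 (2.97-fold) and Frmd6 (6.70-fold), as well as targets such as Axl (4.96-fold). Stk3 and Stk4, the upstream kinases, had log2 changes of 0.01 and 0.20 and did not pass. In the Notch pathway, which shapes bile ducts in development, the ligand Jag1 rose 5.12-fold and the target Hes1 2.07-fold, with 11 of 28 genes up and 5 down (median 0.16, centred -0.22 with 3 rises and 11 falls). Of the 17 Notch genes with a group above background 9 rose and 1 fell, but over all genes this filter also removed more falls than rises. Hedgehog genes were mostly below background (8 of 12).

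Regulators of receptor signals also moved by member. RGS proteins, which switch off G proteins, rose in 6 of 15 and fell in 3 (list median 0.04, centred -0.34 with 5 rises and 7 falls). Rgs10 was 14.9-fold and Rgs1 9.85-fold higher, and Rgs12 was 1.84-fold lower. Dual specificity phosphatases, which switch off MAP kinases, fell in 6 of 17 and rose in 4, Dusp2 by 3.18-fold and Dusp5 by 2.48-fold lower. Prostanoid and leukotriene genes rose in 7 of 33 (21.2%) and fell in 6 (18.2%), both below the shares of all genes, 25.3% and 22.4%. Of these falls 3 were above background in a group. The rises were led by Ptgds, the lipocalin-type prostaglandin D synthase (at least 3.20-fold). Of 32 purinergic genes 6 rose and 6 fell (18.75% each way, below the shares of all genes). Among them Enpp2, which makes lysophosphatidic acid, fell 2.31-fold. Phosphodiesterases passed in 4 of 20, a smaller share than the 47.6% of all genes.

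Ion channels were mostly below background on these arrays. Of 75 potassium channels 59 were below background in both groups, and of 47 sodium and calcium channels 35. Of all potassium channels 13 rose and 17 fell, and of the 16 with a group above background 10 rose and 1 fell. Over all genes this filter also removed more falls than rises, 748 against 100. The shift toward rises therefore cannot be read as a feature of these channels. The rises included Kcnq1 (at least 4.28-fold) and Kcnma1, the large calcium-gated channel of smooth muscle (at least 1.98-fold). Among transient receptor potential channels Pkd2 of cilia rose 8.72-fold. The store-operated calcium channels split, Orai2 at least 2.07-fold higher and Orai1 by 0.81 on the log2 scale lower. Chloride channels rose in 7 of 31 (22.6%) and fell in 3 (9.7%), both below the shares of all genes, with Clic1 6.23-fold higher. Aquaporins, the water pores, rose in 4 of 10 and fell in 2. Aqp1, found in bile ducts and vessels, stood at 5.86, 4.57, 4.18, 4.63 and 4.40 in control and 8.50, 7.81, 6.39, 8.11 and 7.83 in ligated arrays (8.01-fold higher, no overlap). Aqp9, the glycerol pore of hepatocytes, fell by 0.92 on the log2 scale. Subunits of the vacuolar proton pump rose in 8 of 22 and fell in 4, Atp6v1d by 1.95-fold up.

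The machinery of protein synthesis divided. Cytosolic ribosomal proteins rose in 34 of 38 (89.5%), by small amounts that none took to 2-fold (median log2 change 0.58, centred 0.20 with 14 rises and 2 falls). Rps15 read 10.53, 10.33, 10.30, 10.63 and 10.42 in control and 11.52, 11.63, 10.93, 11.24 and 11.14 in ligated arrays, 1.80-fold higher with no overlap (adjusted p = 2.07e-06). The only fall, Rpl3l, and the values of Rps13 and Rpl30 were below background in both groups. Ribosomal proteins of the mitochondrion fell in 32 of 73 and rose in 2 (median -0.27), all of them above background. The falls were 16 of 46 genes of the large subunit and 16 of 27 of the small one. Mrps34 was at 9.05, 9.09, 8.77, 9.11 and 9.10 in control and 8.26, 7.99, 8.55, 7.72 and 8.02 in ligated arrays, 1.89-fold lower with no overlap (adjusted p = 4.49e-06). Ribosomal protein genes have many near-identical pseudogenes, so a probe set may read several copies.

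Aminoacyl-tRNA synthetases, which charge each tRNA with its amino acid, fell in 21 of 32 genes of the list (65.6%, against 22.4% of all genes) and rose in 0 (median -0.53). A split by compartment, made after the values were seen, gave 13 of 17 cytosolic enzymes lower (median -0.91) and 8 of 13 mitochondrial ones (median -0.47). Cars1, which charges cysteine, read 8.10, 8.39, 7.49, 8.03 and 8.36 in control and 6.23, 5.76, 6.85, 5.76 and 6.23 in ligated arrays. It fell 3.75-fold (log2 change -1.91 ± 0.19, adjusted p = 4.73e-10), with no overlap between groups. Aars1, for alanine, read 9.85, 9.99, 9.91, 10.05 and 10.05 in control and 8.53, 8.17, 9.25, 8.28 and 8.46 in ligated arrays and fell 2.70-fold, again with no overlap. Yars1, for tyrosine, fell 2.70-fold and Eprs1, for glutamate and proline, 2.67-fold. Kars1, for lysine, and Rars1, for arginine, had log2 changes of -0.17 and -0.20 and did not pass.

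Cytosolic synthetase genes are known in mammals for a shared promoter element that the factor ATF4 binds with C/EBP partners when amino acids run short. Its letters, TGATGNAA, were chosen after the falls were seen and were searched on both strands in the 250 bases before each RefSeq start (build GRCr8). They occurred in 5 of the 16 cytosolic synthetase genes with a promoter in the table (31.25%) and in 0 of 13 mitochondrial ones, against 2.06% of the 11057 promoters of genes tested and 3.27% of all 27457. The matches are shown with up to 26 bases on either side, cut at the transcription start, on the strand of the gene, with the match in capitals. They are letter matches only and say nothing of whether a factor was bound. Because 13 of the 17 cytosolic synthetase genes fell, falls in the genes with a match do not link the motif to the fall. Such a link was not tested.
Aars1: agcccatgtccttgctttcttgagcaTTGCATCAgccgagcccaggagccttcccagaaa
Iars1: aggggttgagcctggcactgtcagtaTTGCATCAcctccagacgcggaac
Mars1: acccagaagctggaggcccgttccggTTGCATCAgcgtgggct
Nars1: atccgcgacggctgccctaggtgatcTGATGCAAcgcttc
Tars1: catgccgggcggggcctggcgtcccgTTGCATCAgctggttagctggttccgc
The windows lie at chr19:55908344-55908403 on the plus strand (Aars1, match beginning 112 bases before the start), chr17:15193653-15193702 on the minus strand (Iars1, match beginning 24 bases before the start), chr7:65023754-65023796 on the minus strand (Mars1, match beginning 17 bases before the start), chr18:60275783-60275822 on the minus strand (Nars1, match beginning 14 bases before the start) and chr2:62114803-62114855 on the minus strand (Tars1, 27 bases). In Nars1 the motif reads in the direction of the gene, and in the other genes as its reverse complement. The log2 changes of the 5 genes were -1.43, -0.97, -1.04, -0.97 and -1.17 in this order. Cars1, which fell most, had no match in its window, and Yars1 and Eprs1 were not among the genes with a match either.

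Other parts of gene expression gave mixed counts. Translation factors rose in 14 of 58 (24.1%, against 25.3% of all genes) and fell in 17 (29.3%, against 22.4%). Eif4e3 was at least 3.03-fold higher and Eif1ad 2.13-fold lower. Spliceosome genes rose in 13 of 57 and fell in 3, below the share of all genes in both directions (median 0.14, centred -0.24 with 3 rises and 28 falls), and Snrpf, a core protein of the small nuclear particles, rose 2.09-fold. Nucleoporins passed in 7 of 25, a smaller share than the 47.6% of all genes, Nup35 falling 1.60-fold. Mitochondrial import genes rose in 1 of 24 and fell in 6, Timm8a1 by 1.62-fold lower.

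Organelles of degradation went different ways. Lysosomal proteases and hydrolases rose in 17 of 38 and fell in 2 (median 0.29, centred -0.09 with 10 rises and 11 falls). Asah1, the acid ceramidase, rose 3.77-fold and the aspartic protease Ctse at least 3.72-fold, while Gm2a, the activator of ganglioside breakdown, fell 1.49-fold. Autophagy genes fell in 11 of 26 and rose in 3 (median -0.27), all above background in a group. The falls were spread over the initiating kinases Ulk1 (-0.75) and Ulk2 (-0.81), their partner Atg13 (-1.01), the lipid carrier Atg9a (-0.82) and Wipi2 (-1.01), which reads the phosphoinositide of the forming membrane. Wipi2 gave 7.71, 7.62, 7.65, 7.78 and 7.55 in control and 6.78, 6.46, 6.94, 6.27 and 6.79 in ligated arrays, with no overlap. Map1lc3a, a protein of that membrane, rose 2.58-fold. Wipi1 rose 1.84-fold on its brightest probe set, and a second probe set above background went the other way (-0.26). Peroxisome assembly genes fell in 8 of 14 (median -0.51), Pex6 by 2.06-fold and Pex10 by 1.93-fold, and 1 rose.

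**Figure D3:**
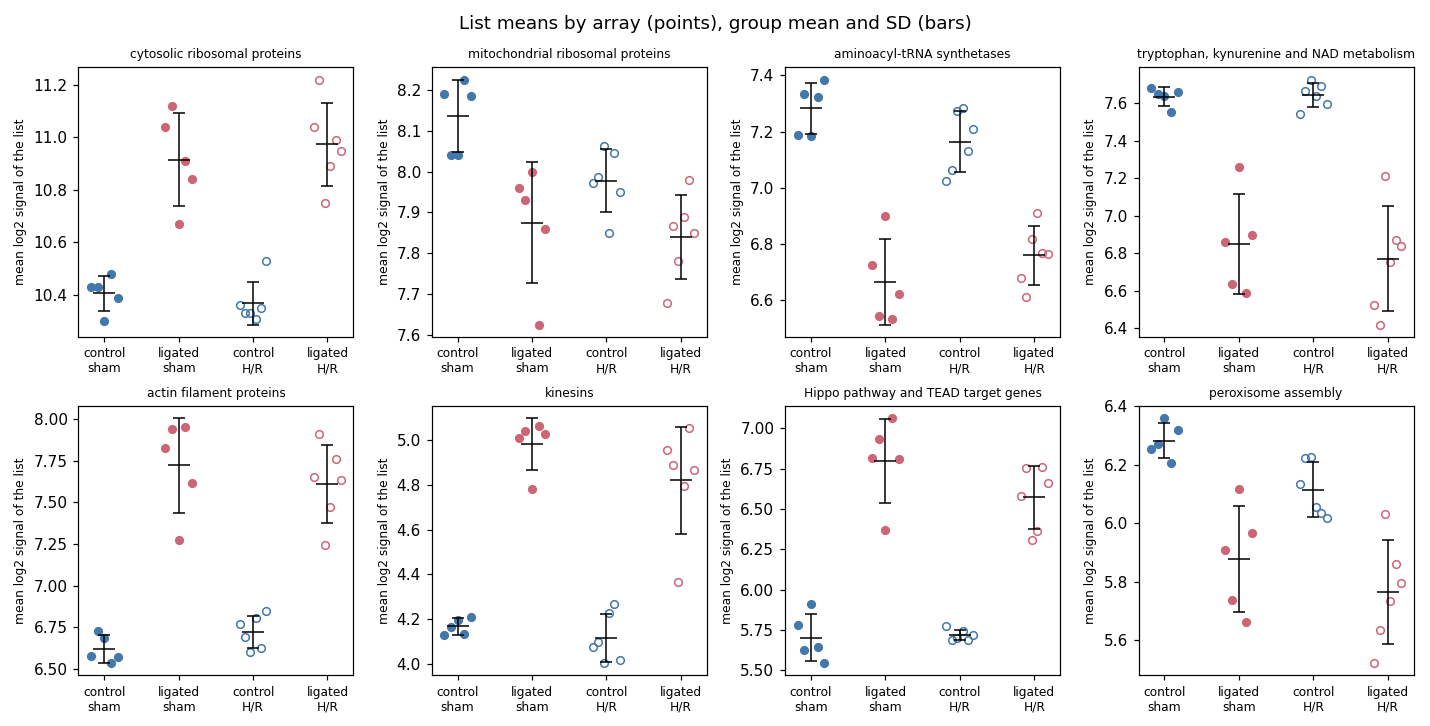
Mean log2 signal over the members of 8 lists in every array of 4 groups (points; control blue, ligated red; filled for sham, open for H/R), with the group mean and SD as bars. Cytosolic ribosomal proteins, actin filament proteins, kinesins and Hippo genes are higher in both ligated groups, and mitochondrial ribosomal proteins, synthetases, the tryptophan and NAD genes and peroxisome genes are lower.

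Metabolic families of the hepatocyte held more falls than rises. Hepatocytes use isoforms of their own for several steps of glucose and glycogen metabolism. In the list of glycolysis, glycogen and fructose genes 15 of 39 fell and 10 rose, and the falls and rises held different isoforms of the same steps. Pklr, the pyruvate kinase of the liver, read 10.08, 10.99, 9.30, 9.29 and 9.89 in control and 5.85, 5.68, 7.67, 5.29 and 6.51 in ligated arrays and fell 13.1-fold (log2 change -3.71 ± 0.36, adjusted p = 3.81e-10). Pkm, the pyruvate kinase of most other cells, read 4.62, 4.42, 4.47, 3.82 and 4.03 and 6.70, 6.68, 5.93, 6.72 and 6.57 and rose at least 3.74-fold (adjusted p = 4.53e-08). The glycogen phosphorylase of liver, Pygl, fell from 10.67, 10.87, 9.88, 10.11 and 10.17 to 8.65, 8.77, 9.40, 8.12 and 8.99 (2.93-fold), and that of brain, Pygb, rose from 4.87, 3.59, 4.54, 4.21 and 4.06 to 6.94, 7.12, 5.86, 6.93 and 6.91 (at least 4.18-fold). None of these 4 genes had overlapping groups, and in all 4 ligated replicate 3 lay nearest to the controls.

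Further steps were read as well. In the list of glycolysis, glycogen and fructose genes the naming rule chose only Pklr, Pfkp, Ldhb and Khk. The others named, Pkm, Pygl and Pygb among them, were chosen after their values were seen. Hk1, a hexokinase of high affinity, rose at least 2.73-fold, and Gckr, the regulator of the liver's glucokinase, fell 3.50-fold. The platelet phosphofructokinase Pfkp rose 9.80-fold and the muscle one, Pfkm, at least 1.85-fold, while Pfkl, the liver one, had a log2 change of 0.09 and did not pass. Ldhb rose 8.21-fold and Ldha fell 1.57-fold. For fructose, ketohexokinase Khk fell 3.58-fold and Tkfc, which acts further down, 3.18-fold. The glycogen synthase of liver, Gys2, fell 2.96-fold. The shared enzymes Gapdh (-0.14), Tpi1 (0.19) and Pgam1 (0.24) did not pass, Pgam1 with a rise past the threshold in 8 of 17 alternatives, among them those without control replicate 2 or ligated replicate 1 or 2. The fructose carrier Slc2a5 fell 7.15-fold.

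**Figure D4:**
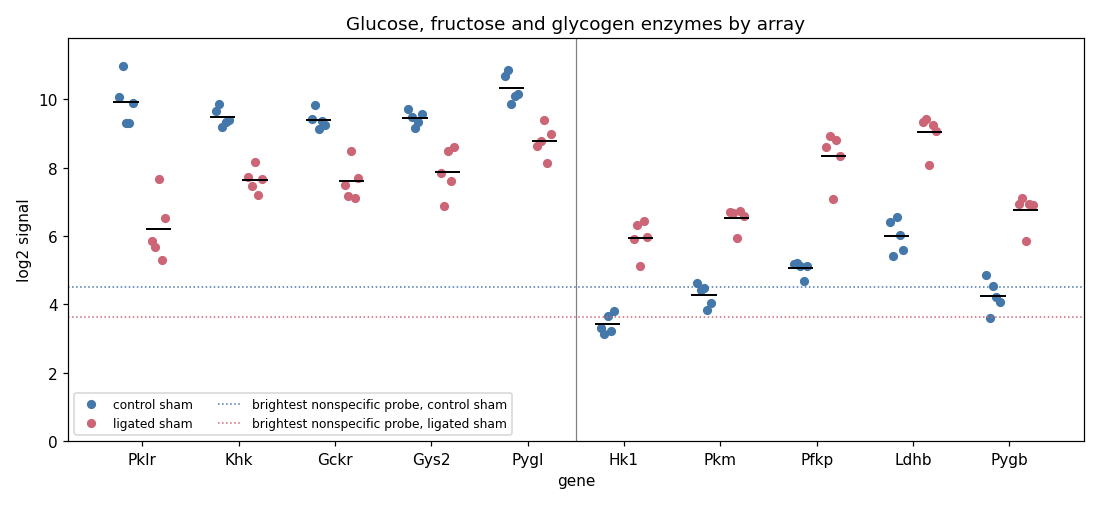
Log2 signal of 10 genes of glucose, fructose and glycogen metabolism in the 5 control sham (blue) and 5 ligated sham (red) arrays, with group means as black lines and dotted lines at the mean of the brightest nonspecific probe of each group (4.51 and 3.64). The 5 genes on the left fell and the 5 on the right rose, Hk1, Pkm and Pygb from control means below background.

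Tryptophan, kynurenine and NAD genes fell in 18 of 22 (81.8%) and none rose (median -0.97). The liver uses this route to break down tryptophan and to make NAD from it. Kmo, the kynurenine hydroxylase, read 8.24, 8.73, 7.64, 8.01 and 8.34 in control and 6.57, 6.17, 7.30, 5.67 and 6.02 in ligated arrays, 3.59-fold lower (adjusted p = 2.32e-05). Nampt, which salvages nicotinamide, fell from 9.64, 9.62, 9.65, 9.48 and 9.80 to 7.33, 7.37, 8.57, 7.74 and 8.14 (3.50-fold), and neither gene had overlapping groups. Later steps fell too, Kynu 2.20-fold and Haao 2.54-fold. The first enzyme, Tdo2, had a log2 change of -0.29 and did not pass, and Acmsd, which diverts the route from NAD, had 0.78 and did not pass either.

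Methionine, choline and one-carbon genes fell in 17 of 33 and rose in 4 (median -0.56). Aldh1l2, the mitochondrial formyl-folate dehydrogenase, fell 5.10-fold and the choline oxidiser Chdh 3.26-fold. Serine hydroxymethyltransferases fell in both compartments, Shmt2 2.62-fold and Shmt1 2.19-fold, as did Pemt, which makes phosphatidylcholine from phosphatidylethanolamine (2.44-fold). Mat1a, the methionine adenosyltransferase of adult liver, had -0.04, and Mat2a, that of other tissues, -0.01, neither past the threshold. Hydroxysteroid dehydrogenases and retinol enzymes fell in 22 of 42 and rose in 2 (median -0.53). Hsd3b5 was 4.66-fold and Hsd17b2 4.59-fold lower, while the endothelial and fat retinoid binder Rbp7 rose at least 5.58-fold. Carboxylesterases and relatives fell in 6 of 8, Ces1e by 4.20-fold, and 4 of the 6 were above background in a group. Relatives of this family share sequence, so 1 probe set may read several genes.

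Aldehyde and alcohol dehydrogenases fell in 10 of 21 and rose in 4. The rises included enzymes that make retinoic acid, Aldh1a2 (11.9-fold) and Aldh1a3 (3.08-fold). Aldo-keto reductases also split, Akr1b1, aldose reductase, 5.07-fold higher and Akr1c3 at least 4.41-fold lower. Among 13 carbonic anhydrases Car3, abundant in rodent liver and fat, fell in all 5 ligated arrays, but to very different levels. Its values were 12.36, 12.40, 12.38, 12.65 and 12.38 in control and 4.28, 7.28, 5.80, 3.73 and 9.18 in ligated arrays, 83.1-fold lower by the group means (log2 change -6.38 ± 0.59). Ligated replicate 5 kept the highest value of its group and replicate 4 the lowest. Car2, the form of bile ducts and many epithelia, rose 7.98-fold. Lipocalins and major urinary proteins fell in 8 of 14 and rose in 2, with 5 of the falls in genes above background in a group. Obp3, a secreted rat lipocalin, was at 11.36, 9.97, 11.32, 10.05 and 9.85 in control arrays and at 3.21, 2.74, 3.42, 2.93 and 8.10 in ligated arrays, where replicate 5 stood far above the other 4. Apom, an apolipoprotein of this family, fell 3.37-fold.

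Zinc transporters and metallothioneins fell in 12 of 23 and rose in 2 (median -0.36), Slc39a8 by 2.78-fold lower. Of the 12 falls 8 were in genes above background in a group. In sphingolipid metabolism 10 of 31 genes rose and 7 fell. Sphk1, which makes sphingosine 1-phosphate, rose at least 5.67-fold and Sgpl1, which cleaves it, fell 2.32-fold. Of the ceramide synthases Cers2, the form that makes very long chains in liver, fell 2.13-fold and Cers5 rose 4.02-fold.

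Transcription factors outside the liver-enriched set were often too low to read, 16 of 29 forkhead and 24 of 38 homeobox genes being below background in both groups. Sox4 stood out in the SOX family: it read 6.45, 5.78, 5.52, 4.71 and 5.09 in control and 10.10, 10.27, 8.64, 10.39 and 9.99 in ligated arrays, 20.6-fold higher with a clear gap between the groups (log2 change 4.37 ± 0.30, adjusted p = 1.79e-13). Of 14 SOX genes 4 rose and 9 were below background in both groups. Klf5, a factor of gut and duct epithelium, rose 10.1-fold, and Krueppel-like and SP factors rose in 7 of 18 and fell in 1 (median 0.17, centred -0.21 with 5 rises and 6 falls). Forkhead factors rose in 6 of 29 and fell in 8, the hepatocyte factors Foxa3 2.49-fold and Foxa1 1.91-fold lower and Foxp1 2.14-fold higher. Of the 8 forkhead falls 3 were in genes above background in a group. Basic helix-loop-helix factors rose in 8 of 26 (30.8%, against 25.3% of all genes) and fell in 4. Bhlhe41, a repressor tied to the clock, rose at least 5.78-fold and Bhlhe22 at least 2.88-fold. Of the RUNX, GATA, T-box and TWIST group 6 of 23 rose (26.1%, near the share of all genes), Runx1 by 3.55-fold, and 1 fell. Homeobox factors passed in 13 of 38, a smaller share than the 47.6% of all genes, with Pbx3 2.09-fold higher.

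Protease inhibitors separated by clade. Serpins, the suicide inhibitors of serine proteases, fell in 10 of 12 members of clade A, which liver secretes into plasma (median -0.96; 2 of the 10 below background in both groups), and rose in 4 of 11 members of clade B, which stay inside cells. The other 7 of clade B were below background in both groups. Serpina6, the corticosteroid carrier, read 11.39, 11.17, 11.53, 11.61 and 11.20 in control and 9.15, 8.21, 9.58, 6.84 and 9.32 in ligated arrays, 6.77-fold lower (adjusted p = 5.89e-05), and Serpina4, kallistatin, fell 6.84-fold. Serpinb1a, an inhibitor of neutrophil proteases, was at 6.72, 6.51, 7.08, 5.38 and 6.50 and 10.64, 10.88, 9.56, 10.54 and 11.06, 17.1-fold higher (adjusted p = 2.63e-10). Serpina1, antitrypsin, had -0.12 and did not pass. The split by clade was made after the values were seen. Among cystatins and inhibitors of Kunitz or WAP type 9 of 34 rose and 5 fell. Spint1, a Kunitz inhibitor of epithelial membrane proteases, read 3.20, 3.52, 3.36, 3.40 and 2.96 in control arrays and 8.13, 8.09, 7.20, 8.00 and 7.35 in ligated arrays, at least 9.50-fold higher. Spink1, a trypsin inhibitor, fell 9.93-fold.

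Genes of glycans held strong single members. Sialyl-, fucosyl- and GalNAc-transferases rose in 6 of 35 and fell in 8. Mucins and trefoil factors rose in 1 of 10 and fell in 4, the falls all below background in both groups. St6galnac2, a sialyltransferase, rose at least 8.27-fold and Muc1, the membrane mucin of ducts, at least 4.01-fold, while 8 of 10 mucins and trefoil factors were below background in both groups. The list of galectins, which bind galactosides, also holds Lgals3bp, a protein they bind that is no galectin itself. Of its 9 genes 4 rose (44.4%, against 25.3% of all genes) and none fell: Lgals1 at least 6.99-fold, Lgals3 7.58-fold, Lgals3bp 6.43-fold and Lgals2 4.33-fold.

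Of the immune receptor families the Fc receptors stood above the share of all genes. They and their adaptors rose in 11 of 18 and fell in 1 (median 0.84), the signalling adaptors Tyrobp 2.37-fold and Fcer1g 2.22-fold and the high-affinity IgG receptor Fcgr1a 3.23-fold. C-type lectins rose in 9 of 33 (27.3%, against 25.3% of all genes) and fell in 6. Clec10a, a lectin of macrophages and dendritic cells, read 4.37, 4.21, 3.76, 3.75 and 4.06 in control and 7.75, 7.74, 6.76, 7.83 and 7.17 in ligated arrays, at least 7.37-fold higher with no overlap. Clec4f, the lectin of Kupffer cells in rodents, read 9.10, 7.79, 9.15, 8.61 and 9.39 and 6.04, 4.58, 9.28, 3.99 and 6.56: ligated replicate 3 lay within the control range and the others below it (6.57-fold lower, adjusted p = 0.00644). Of 8 Toll-like and NOD-like receptors 2 rose, a share near that of all genes, and 1 fell. Tlr4 rose at least 1.56-fold and Tlr8 2.70-fold. Adhesion G protein-coupled receptors rose in 6 of 21 and fell in as many, 28.6% each way, with Adgrg1 at least 9.07-fold and Adgrg6 at least 3.39-fold higher and Adgrf5, of endothelium, 1.67-fold lower.

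Beyond the families, the genes ranked 11 to 25 by size of rise or fall among those measured in both groups were read. The rises held the epithelial adhesion protein Epcam (17.0-fold), the calcification inhibitor Mgp (13.7-fold), Anxa2 (13.5-fold), Emp1 (log2 change 3.70), the plasma glutathione peroxidase Gpx3 (12.1-fold), the fatty acid desaturase Scd2 (12.3-fold), and Pmepa1, a target and brake of TGF-beta signalling (12.1-fold). Trim35, Rflnb and Pamr1 rose too, with log2 changes of 3.71, 4.07 and 3.86. The falls held peroxisomal oxidases, Hao2 (9.40-fold) and the D-amino acid oxidase Dao (7.95-fold), the oestrogen sulfotransferase Sult1e1 (8.23-fold), the activin subunit Inhbe (7.79-fold) and Angptl6 (7.80-fold). Sez6, known from neurons, fell 7.44-fold. Hao2 read 10.18, 10.87, 10.75, 10.69 and 10.43 in control and 7.64, 6.83, 8.98, 5.98 and 7.33 in ligated arrays, with every ligated value below the controls. Saa3, an amyloid protein of the acute phase, fell 10.2-fold but its groups overlapped, with 7.19, 7.70, 8.60, 5.56 and 7.26 in control and 2.60, 3.38, 3.74, 6.08 and 3.70 in ligated arrays.

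The comparison was repeated in the animals with H/R, 6 ligated against 6 control, which share no array with the sham groups but share the spread estimated over all 35. There 6310 genes (47%) passed. Of the 6402 genes called in sham rats 98.3% had the same sign in the H/R arms, and 4930 were called there with that sign, which is 77.0% of the calls in sham rats and 78.1% of those with H/R. The log2 changes of Tspan8 were 5.28 in sham and 5.44 in H/R rats, those of Sox4 4.37 and 4.36, those of Pklr -3.71 and -3.24 and those of Cars1 -1.91 and -1.15. All 266 genes that the naming rule chose had the same sign in both. Some were much nearer to 0 with H/R, such as Ugt2b1 (-3.26 and -1.36) and the WAP protein Wfdc2 (2.36 and 0.77). The H/R pair also shares the technical differences of the sham pair. Its brightest nonspecific probe averaged 4.59 in control and 4.00 in ligated arrays, and BioD exceeded BioB by 3.205 and 3.567. Title endings separate control from ligated arrays there as well. Agreement in sign between the pairs therefore cannot tell ligation from such differences.

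The test of the difference between the H/R and the sham effect called 1 gene (0.00744%) and left 734 at an unadjusted p under 0.05. That gene, Clec4m, was named after its values were seen: its log2 change was -1.06 in sham and -2.52 in H/R rats, a difference of -1.46 (adjusted p = 0.0129), and it was below background in both sham groups. Only Rcan2 and C3ar1 were called in both comparisons with opposite signs. Rcan2 had log2 changes of 1.01 and -0.60, with an adjusted p of 0.11 for the difference, and C3ar1, below background in both sham groups, had -0.47 and 0.45. The fall of C3ar1 in sham rats no longer passed without control sham replicate 2 or 5 or ligated sham replicate 2, 3 or 4 (log2 change -0.47 to -0.26, adjusted p of 0.0532 to 0.194), nor with only the control sham and ligated sham groups in the fit (adjusted p = 0.112). Both were named after their values were seen.

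**Figure D5:**
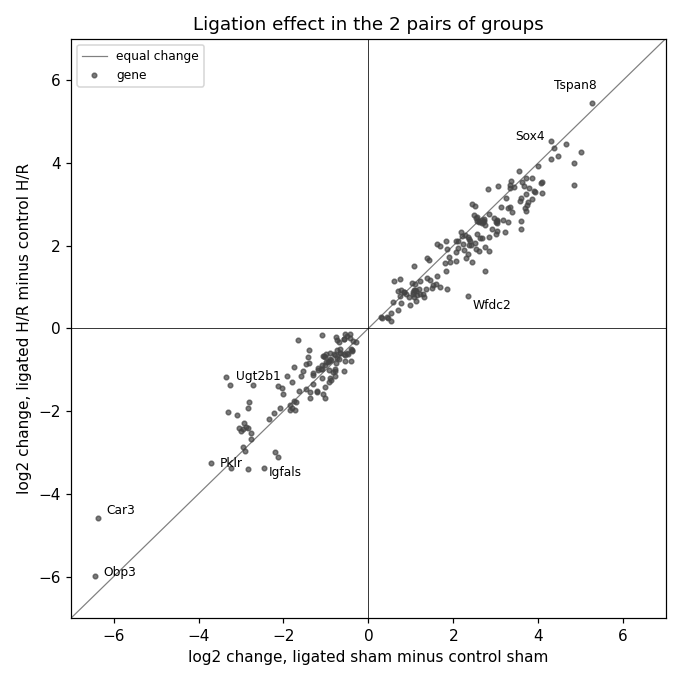
Log2 change after ligation in sham rats (horizontal) and in H/R rats (vertical) for the 266 genes of the naming rule, with the line of equal change. All points lie in the quadrants of shared sign, from Obp3 at -6.43 and -6.00 to Tspan8 at 5.28 and 5.44, and Wfdc2 lies well below the line at 2.36 and 0.77.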

How the data were processed

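Liver RNA of 35 rats was measured on 1-colour Affymetrix arrays with biotin label, per the labels' protocols. The deposited values are log2 signals per probe set. How they were normalized and summarised is not stated in the labels, and they were used as deposited, from 1.51 to 13.79. Of 31139 probe sets 19069 list 1 gene symbol in the platform annotation, 572 several and 11498 none here. The brightest single-symbol probe set stood for each of 13439 genes. Limma 3.58.1 in R 4.3.3 fitted 1 mean per group over all 35 arrays (lmFit, eBayes), with Benjamini-Hochberg adjustment over all genes and a threshold of 0.05. The fit was first tested on simulated data. Background was the brightest of 23 nonspecific probes on each array, averaged over a group. A fold for a gene below it in 1 group is a bound, set against the higher of background and the gene's own signal on each array, and none is given where the brighter group is below it. The small number of arrays bounds the precision. No 2 arrays held identical values, and the highest correlation between arrays was 0.992.

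The 75 lists, the markers and the genes named were chosen with earlier results of these data known. Each list names up to 2 largest rises and 2 largest falls among called members above background in a group, and over the table the genes ranked 11 to 25 in each direction were added where both groups were above background. The alternatives were the groups fitted, eBayes with trend, array weights, a filter at the 30th percentile, quantile normalization, centring, all probe sets and each array of the groups compared left out. Simvastatin arrays, which add to the spread, were not left out singly. In simvastatin sham replicate 1 the Gapdh control probes of the 3' end exceeded those of the 5' end by 2.20, against at most 0.345 in ligated sham arrays. Its highest correlation with another array was 0.968. With only the sham groups compared in the fit, which leaves it out, 6157 genes passed. Promoters are RefSeq's, build GRCr8. 1 of the lists is not reported here.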

Additional observations from a re-analysis of the deposited data

Results flagged for a closer look

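Among 486 sets of 5 arrays, the control and the ligated sham values of each gene given with values, 32 held 1 array far from the other 4 by Dixon's test, which chance gives in about 1 of 20 sets. In 23 of the 32 it was ligated sham replicate 3, the array with the smallest ligation effect. It lay nearer to the controls, as the lowest ligated log2 signal, for Adgrg1 (6.59), Cd9 (8.93), Cdh11 (5.29), Frmd6 (7.58), Gja1 (10.8), Jag1 (6.92), Kcnq1 (5.42), Kif12 (5.47), Ldhb (8.09), Lgals3 (9.91), Pkm (5.93), Pygb (5.86), Sema5a (6.62), Sox4 (8.64), Sphk1 (5.99), Trim35 (7.71) and Vil1 (6.10). It was the highest ligated signal for the genes that fell, Angptl6 (6.36), Dusp5 (8.44), Foxa1 (5.95), Gjb2 (10.4), Nars1 (8.98) and Tars1 (9.43). The reason for its position was not tested. Ligated replicate 5 stood apart for Obp3 (8.10) and ligated replicate 2 for Kif5b (5.78) and for the pancreatic gene Ctrb1 (8.28). In the control group the arrays apart were replicate 1 for Aqp1 (5.86), replicate 2 for Ulk1 (7.49), replicate 3 for Gja5 (4.33) and Mrps34 (8.77) and replicate 4 for Car3 (12.7) and Pfkp (4.68).

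The ligation effect on Clec4m differed between H/R and sham rats by -1.46 on the log2 scale, with an adjusted p of 0.0129 in limma's test of the difference. It was the only gene called there, and it was below background in both sham groups.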

How the results depend on the processing

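No paired analysis was possible because the labels give the rats no replicate numbers shared across groups. The count of genes past the threshold in sham rats ran from 5722 without ligated replicate 4 to 6719 without ligated replicate 3, and stayed within 1.5 times 6402 in the other 7 settings, from 5516 of 9407 with a filter on low means to 9304 with each array centred on its median. Centring turned the split to 1949 rises and 7355 falls, array weights gave 3677 and 3384, and the filter gave 3208 and 2308. The sign of a list median changed in 19 of 75 lists when centred, in 7 after quantile normalization and in 5 with the mean of all probe sets. Centring moved the median of all genes by -0.38 as well. The 1 gene called for the difference between H/R and sham rats became 0 with only the 4 groups in the fit, with the filter or when centred, and 2 after quantile normalization or with all probe sets, with 0 to 5 when 1 array was left out. The cause was not tested. Of 4125 alternative values of the genes printed, 4066 kept direction and side of the threshold, 9 no longer passed (Acta2, C3ar1, Fgfr2 and Rpl3l), 21 newly passed (8 of Pgam1, 4 of Fgfr4, and 1 each of Alb, Gapdh, Kars1, Kif5b, Mat1a, Mat2a, Rars1, Serpina1 and Tdo2) and 29 changed sign. Of the genes past the threshold only Fgfr2 changed sign (-0.036, mean of all probe sets). The others were not past the threshold: when centred, Eln gave -0.36, Pfkl -0.29, Pgam1 -0.14, Stk3 -0.37, Stk4 -0.18 and Tpi1 -0.19. After quantile normalization Eln gave -0.26, Mat2a 0.043, Pfkl -0.11, Stk3 -0.073 and Stk4 -0.022, and array weights gave -0.049 for Eln. With 1 array left out Eln ran from -0.079 to 0.12, Kif5b from -0.17 to 0.0046, Mat1a from -0.091 to 0.031, Mat2a from -0.063 to 0.038, Pfkl from -0.042 to 0.19 and Stk3 from -0.030 to 0.043. Signal over background limits the 3619 genes below it in both groups.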
